A study of Homo sapiens with 9 samples.

Results

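Intermediate filaments were examined as 7 genes, PRPH, NEFL, NEFM, NEFH, INA, NES and VIM, of 14181 genes tested on 9 Affymetrix HG-U133 Plus 2 arrays. They were chosen by name with earlier results of these data known, which limits what their tests and counts can show. Each was read by the brightest, on average over all arrays, of the probe sets that carry its symbol alone. PRPH was known to differ between the resistant lines and their parent when the genes were chosen, so its differences from TC-71 are given as a description with no test. All 7 genes had a probe set that passed the filter on dim signals, and 12 of their 13 probe sets passed it.

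Intermediate filaments are rope-like polymers of coiled-coil proteins that give a cell mechanical strength, and which family members a cell makes depends on its type. In neurons the light, medium and heavy neurofilament subunits (NEFL, NEFM and NEFH) assemble with alpha-internexin (INA) or peripherin (PRPH) and set the calibre of the axon. Neural progenitors make nestin (NES), which polymerises with vimentin (VIM), the filament protein of mesenchymal cells. Ewing sarcoma is a tumour of bone and soft tissue of young people, driven by a fusion of EWSR1 with an ETS factor, and its cells can carry neural as well as mesenchymal features.

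The cells were 3 lines derived from the Ewing sarcoma line TC-71 by exposure for 6 months to rising amounts of an agent against the IGF-1 receptor. NVP-AEW541, an inhibitor of the receptor's kinase, reached 5 µM for TC/AEW. AVE1642, an antibody to the receptor, reached 10 µg/ml for TC/AVE. TC/CP came from the antibody figitumumab, whose top dose is not given in the sources used here. They were set against TC-71 itself, labelled as not resistant, and all cells were kept in the same serum-containing medium. There were 2 technical replicate arrays for each resistant line, averaged into 1 sample, and 3 TC-71 samples with 1 array each, which the series design calls biological replicates. Each line stands for 1 selection, the labels name no TC-71 culture carried alongside for 6 months, and resistance and time in culture cannot be told apart. Every p-value reflects nothing but the scatter of these samples, which for a single line is that of TC-71. limma moderates the scatter of a gene towards that of all genes, so errors and p-values do not rest on the gene's own scatter alone. The number of arrays limits their precision.

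Levels are log2 expression values, comparable between samples for one probe set but not between genes. Array medians over single-symbol probe sets were nearly equal, and the 2 arrays of a line correlated at 0.996 to 0.998 across genes, against 0.962 to 0.983 between TC-71 samples. Of 10 Ewing sarcoma markers, 9 were on the array as single-symbol genes, and none was under 5 in all samples. Their mean level was 10.56, 10.62 and 10.36 in TC/AEW, in TC/AVE and in TC/CP, and 10.44 to 10.69 in TC-71. In the lines in common, 5 of these 9 stood higher and 4 lower, with a median of 0.13, beside -0.01 over all genes. LIPI, a lipase gene on that list, had the largest difference and stood lower in every line. It read 5.82, 5.23 and 5.33 in the lines and 7.01 ± 0.49 in TC-71 (SD, n = 3), which was -1.55 ± 0.28 in the lines in common (adjusted p = 0.204 by limma). BCL11B, the next in size, stood higher in every line, at 10.81, 10.64 and 10.22 against 9.92 ± 0.32 in TC-71. The 7 mature neuron markers had a mean of 6.86, 6.85 and 6.63 in the lines and 6.76 to 6.93 in TC-71. Of these 7, 3 were under 5 in all samples. The 8 fibroblast markers had a mean of 6.67, 5.80 and 6.09 in the lines and 5.67 to 6.15 in TC-71. Among them LUM, the proteoglycan lumican, read 8.36, 3.78 and 5.38 in the lines and 5.22 ± 1.51 in TC-71 (SD, n = 3).

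The RefSeq table held the promoters of 4 of the 7 genes, here the 250 bases before the gene's start on GRCh38.p14. The promoters of PRPH, INA and NES are shown because these genes stood apart from TC-71 in different lines, PRPH in every line, INA in TC/AVE and NES in TC/AVE and TC/CP. Capitals mark matches on either strand to the 5 motifs spelled out after the sequences, read 5′ to 3′ along the gene. PRPH lies at chr12:49294897-49295146 (plus strand), INA at chr10:103276888-103277137 (plus strand) and NES at chr1:156677408-156677657 (minus strand).
PRPH: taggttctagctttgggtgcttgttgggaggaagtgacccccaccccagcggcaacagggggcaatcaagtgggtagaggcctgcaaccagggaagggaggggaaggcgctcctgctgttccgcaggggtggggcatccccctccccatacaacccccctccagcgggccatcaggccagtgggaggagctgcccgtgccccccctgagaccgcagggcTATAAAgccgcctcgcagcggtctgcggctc
INA: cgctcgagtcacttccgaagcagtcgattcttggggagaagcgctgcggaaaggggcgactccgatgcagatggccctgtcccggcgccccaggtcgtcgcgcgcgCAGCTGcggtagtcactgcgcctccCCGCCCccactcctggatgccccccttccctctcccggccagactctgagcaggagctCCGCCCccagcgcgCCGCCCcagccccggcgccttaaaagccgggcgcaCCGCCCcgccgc
NES: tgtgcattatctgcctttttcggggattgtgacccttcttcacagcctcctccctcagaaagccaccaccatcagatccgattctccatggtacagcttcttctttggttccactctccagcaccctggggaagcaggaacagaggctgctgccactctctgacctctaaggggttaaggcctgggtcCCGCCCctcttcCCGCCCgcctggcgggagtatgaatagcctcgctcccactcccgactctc
PRPH alone among the 4 held TATAAA, the core of a TATA box, with its first base 31 bases before the start. TATAAA was in 10.7% of all 35116 promoters in the table. GGGCGG, the core of an SP1 box, was found 4 times upstream of INA, 2 times upstream of NES and 1 time upstream of VIM, and in 42.6% of all promoters. CAGCTG, an E-box, occurred 1 time upstream of INA and in 14% of all promoters. CCAAT (32% of all promoters) and GGAAGGAA (3.06%) were in none of the 4 windows. The motifs do not overlap one another in these windows, and a match is only a run of letters.

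PRPH, peripherin, a filament of peripheral neurons, was far lower in every resistant line. It read 7.12 and 7.12 in TC/AEW, 6.75 and 6.48 in TC/AVE and 6.94 and 7.07 in TC/CP, against 11.40, 10.75 and 9.90 in TC-71 samples 1, 2 and 3. All 6 arrays of the lines lay below all 3 TC-71 arrays. In bulk RNA, fewer cells with the transcript and less of it per cell cannot be told apart. The difference from TC-71 was -3.56 ± 0.59 in TC/AEW, -4.07 ± 0.59 in TC/AVE and -3.68 ± 0.59 in TC/CP (log2, moderated SE). As a fold these are 11.8, 16.8 and 12.8 lower. It ranked 1, 5 and 2 by absolute difference among the 14181 genes of these comparisons, and 1 in the lines in common. The rank describes the value for which it was picked.

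The PRPH values of the resistant lines lay close together. TC/AVE minus TC/CP was -0.39 ± 0.72 (95% interval -2.24 to 1.45, adjusted p = 1 by limma), and TC/AEW minus the mean of both antibody lines was 0.31 ± 0.62 (interval -1.29 to 1.91, adjusted p = 1). These intervals are wide and do not show that the lines are alike. The spread of PRPH among the TC-71 samples was large too, with an SD of 0.75 that exceeded that of 97.9% of genes. Sample 1 was the highest and sample 3 the lowest, and TC/CP minus sample 3, which shares its array set, was still -2.89.

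**Figure D1:**
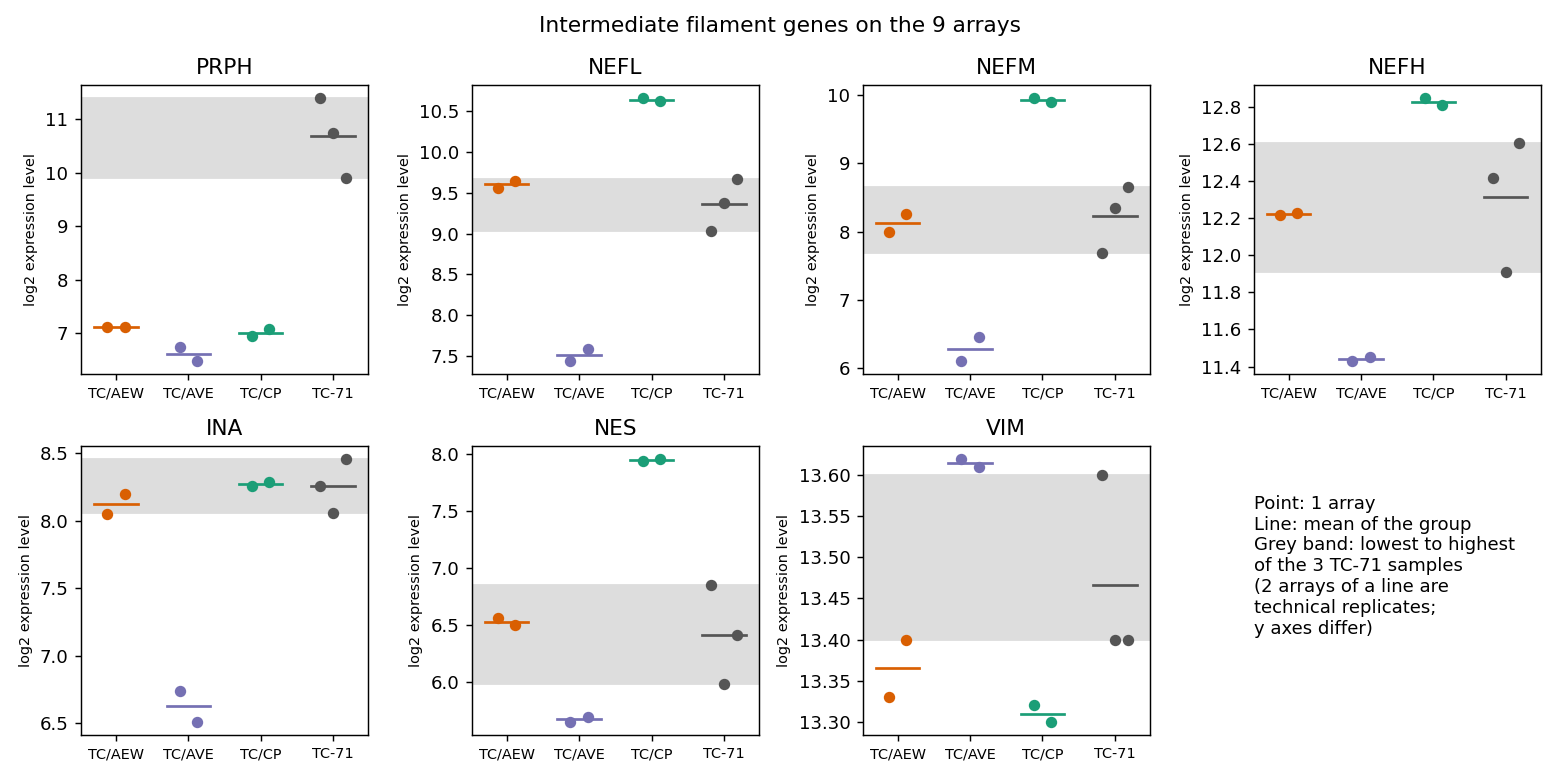
Log2 expression level (y axis, scales differ) of the 7 genes on every array of TC/AEW, TC/AVE, TC/CP and TC-71, with the group mean as a line and the TC-71 range as a grey band. PRPH lies below the band in all 3 lines, NEFL, NEFM, NEFH and NES lie below it in TC/AVE and above it in TC/CP, and INA lies below it in TC/AVE.

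The neurofilament subunits followed another pattern, with TC/AVE lowest and TC/CP highest of the 6 samples. NEFL, the light subunit on which neurofilament assembly depends, read 9.56 and 9.65 in TC/AEW, 7.44 and 7.59 in TC/AVE and 10.66 and 10.62 in TC/CP, against 9.03, 9.37 and 9.67 in TC-71. Both TC/AVE arrays lay below and both TC/CP arrays above all TC-71 arrays, while TC/AEW lay among them. NEFL minus its TC-71 level was -1.84 ± 0.31 in TC/AVE (3.59-fold lower, adjusted p = 0.328) and 1.28 ± 0.31 in TC/CP (2.43-fold higher, adjusted p = 0.649 by limma). Neither passed the threshold of 0.05.

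NEFM, the medium subunit, whose long tail carries many phosphorylation sites, had the widest range of the 3 subunits. It read 7.99 and 8.25 in TC/AEW, 6.11 and 6.46 in TC/AVE and 9.95 and 9.90 in TC/CP, against 7.68, 8.34 and 8.65 in TC-71. TC/AEW again lay within TC-71 and the antibody lines on either side of it, without overlap. NEFM minus its TC-71 level was -1.94 ± 0.41 in TC/AVE (3.83-fold lower, adjusted p = 0.468) and 1.70 ± 0.41 in TC/CP (3.26-fold higher, adjusted p = 0.650 by limma).

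NEFH, the heavy subunit, which forms the side arms of the mature filament, had the same order with smaller gaps. It read 12.22 and 12.23 in TC/AEW, 11.43 and 11.45 in TC/AVE and 12.85 and 12.81 in TC/CP, against 12.42, 11.91 and 12.61 in TC-71. The antibody lines did not overlap TC-71, and TC/AEW did. The difference from TC-71 was -0.88 ± 0.33 in TC/AVE (adjusted p = 0.681) and 0.52 ± 0.33 in TC/CP (adjusted p = 0.998 by limma). TC-71 sample 2 was the lowest of its group, and TC/AVE minus that sample, of the same array set, was -0.48.

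INA, the neurofilament partner of central neurons, was low in TC/AVE and close to TC-71 elsewhere. It read 8.05 and 8.20 in TC/AEW, 6.74 and 6.51 in TC/AVE and 8.26 and 8.29 in TC/CP, against 8.26, 8.06 and 8.46 in TC-71. TC/AVE lay apart from every other array. Its difference from TC-71 was -1.64 ± 0.25 in TC/AVE (3.11-fold lower, adjusted p = 0.277, the lowest of these genes in that line, by limma). TC/CP stood within the TC-71 spread, at 0.01 ± 0.25 (95% interval -0.63 to 0.66), and so did TC/AEW, at -0.14 ± 0.25.

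NES, nestin, the filament of neural stem and progenitor cells, stood highest in TC/CP. It read 6.56 and 6.50 in TC/AEW, 5.65 and 5.69 in TC/AVE and 7.94 and 7.96 in TC/CP, against 6.85, 5.98 and 6.41 in TC-71. TC/CP lay above and TC/AVE below all TC-71 arrays, and TC/AEW among them. The difference from TC-71 was 1.54 ± 0.38 in TC/CP (2.90-fold, adjusted p = 0.650) and -0.74 ± 0.38 in TC/AVE (adjusted p = 0.782 by limma).

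VIM, vimentin, was nearly level in all samples. It read 13.33 and 13.40 in TC/AEW, 13.62 and 13.61 in TC/AVE and 13.32 and 13.30 in TC/CP, against 13.60, 13.40 and 13.40 in TC-71. TC/AVE lay just above and TC/CP just below the TC-71 arrays. The differences from TC-71 were -0.10 ± 0.22 in TC/AEW, 0.14 ± 0.22 in TC/AVE and -0.16 ± 0.22 in TC/CP, with adjusted p from 0.998 to 1 by limma. Its range over the 6 samples was 0.31, and 12.3% of genes had a smaller one.

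In order of level, NEFL, NEFM, NEFH and NES ran TC/AVE, then TC/AEW and TC-71, then TC/CP, and the middle pair differed by less than the TC-71 SD in each. In INA, TC/AVE was lowest, and TC/AEW, TC-71 and TC/CP lay within 1 SD of TC-71 (0.20). In PRPH, the 3 lines lay within 0.51 of each other, less than the TC-71 SD of 0.75.

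**Figure D2:**
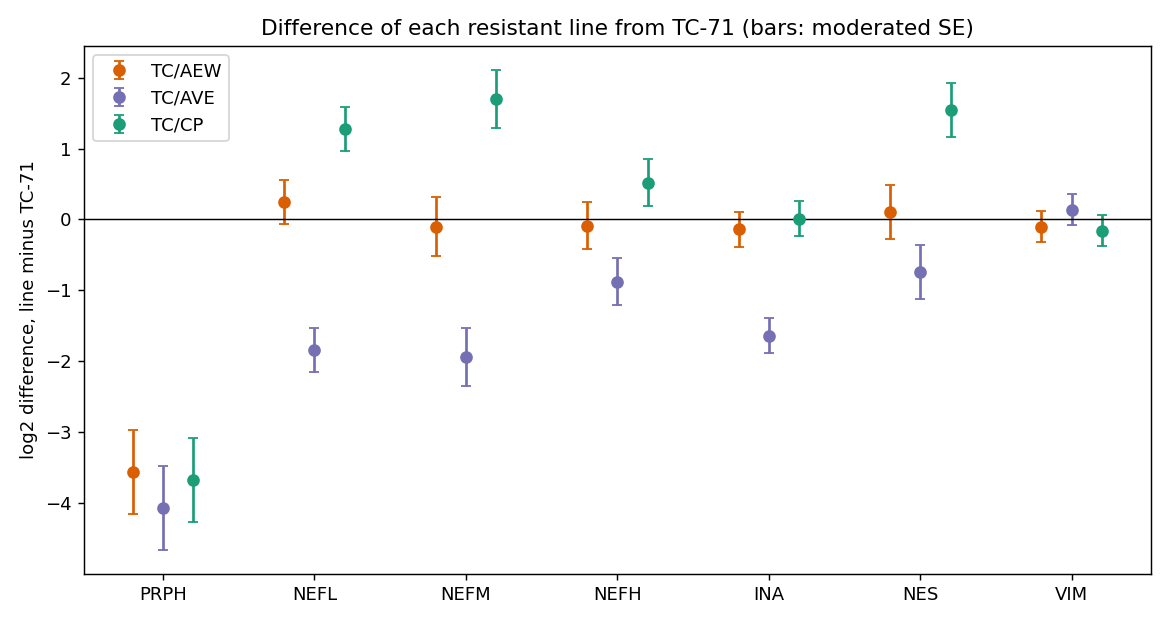
Log2 difference of each resistant line from the mean of 3 TC-71 samples (y axis) for the 7 genes (x axis), with moderated standard errors as bars. PRPH is at -3.56 to -4.07 in all lines, and NEFL and NEFM lie at -1.84 and -1.94 in TC/AVE and at 1.28 and 1.70 in TC/CP.

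Counted over the family, TC/AVE had 6 of 7 genes with both arrays below all TC-71 arrays, PRPH included, and 19.7% of all genes did so. At a difference of at least 2-fold as well, 4 of 7 did so (PRPH, NEFL, NEFM and INA), against 1.71% of all genes. PRPH was picked for a known difference, so its place in each count of genes below TC-71 is no result about the family. TC/CP had 4 of 7 with both arrays above all TC-71 arrays (NEFL, NEFM, NEFH and NES), against 21.1% of all genes, and 3 of 7 at least 2-fold, against 2.43%. VIM was the 1 gene of 7 above all TC-71 arrays in TC/AVE (19.6% of all genes), and VIM and PRPH were the 2 of 7 below them in TC/CP (17% of all genes). TC/AEW had 0 of 7 above (15.3% of all genes) and 1 of 7 below, PRPH (14.3%). No gene of the family passed the adjusted threshold in any line, where limma called 0 genes of 14181 and 0% of genes in either direction, with 501, 1018 and 705 genes at an unadjusted p under 0.05 in TC/AEW, in TC/AVE and in TC/CP. At an unadjusted p under 0.05, 0 of the 6 genes other than PRPH passed in TC/AEW, 4 in TC/AVE, all lower (3.87% of all genes), and 3 in TC/CP, all higher (3.48% of all genes).

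In the lines taken in common, the neurofilament genes were not called, and their values in TC/AVE and TC/CP lay on opposite sides of TC-71. The difference was -0.10 ± 0.71 for NEFL (interval -1.79 to 1.58), -0.11 ± 0.83 for NEFM, -0.15 ± 0.36 for NEFH, -0.59 ± 0.42 for INA, 0.30 ± 0.55 for NES and -0.04 ± 0.14 for VIM. Their adjusted p ran from 0.788 to 0.978 by limma, with 0 at an unadjusted p under 0.05, and 0.0212% of all genes were called lower and 0% higher. PRPH, for which no test was made, stood at -3.77 ± 0.36. Of the 7 genes, PRPH alone was at least 2-fold lower with every array beyond TC-71, and 0.381% of all genes were. It was picked for that difference, so the share is a description only.

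The direct comparison of the antibody lines separated the family most. TC/AVE minus TC/CP was -3.64 ± 0.51 for NEFM (12.5-fold lower, adjusted p = 0.360), the sixth largest absolute difference of all genes, and -3.13 ± 0.38 for NEFL (8.73-fold lower, adjusted p = 0.292). It was -2.28 ± 0.46 for NES (4.85-fold lower, adjusted p = 0.518), -1.65 ± 0.31 for INA (3.14-fold lower, adjusted p = 0.448) and -1.39 ± 0.41 for NEFH (2.63-fold lower, adjusted p = 0.706 by limma). These 5 of 7 genes were at least 2-fold lower, against 3.24% of all genes. None passed the adjusted threshold, nor did any of the 14181 genes, with 816 at an unadjusted p under 0.05 and 5 of the family among them, all lower (3.8% of all genes). VIM stood 0.31 ± 0.27 higher in TC/AVE (adjusted p = 1). The second NES probe set had a mean of 4.97 in TC/AVE and 5.07 in TC/CP, and so did not show the 4.85-fold gap of the first.

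TC/AEW against the mean of TC/AVE and TC/CP showed smaller differences. INA stood 0.67 ± 0.26 higher (interval 0.00 to 1.35) and NEFL 0.53 ± 0.33 higher, and the adjusted p of all 7 genes was 1 by limma, with 0 of 7 at an unadjusted p under 0.05. The mean of the antibody lines lies between values far apart for the neurofilaments. Against TC/AVE alone, whose arrays belong to the same set, TC/AEW was at 9.61 for NEFL, with TC/AVE at 7.51. TC/AEW was at 8.12 for NEFM, with TC/AVE at 6.28, and at 8.12 for INA, with TC/AVE at 6.62. This pair of lines was not tested.

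The raw-data file names in the labels carry a year, which splits the arrays into 3 sets. TC-71 sample 1 is alone in the first. The second combines TC/AEW, TC/AVE and TC-71 sample 2, and the third TC/CP and TC-71 sample 3. Within the second set, TC/AVE minus TC-71 was -4.14 for PRPH, -1.86 for NEFL, -2.05 for NEFM, -0.48 for NEFH, -1.44 for INA and -0.31 for NES. TC/AEW minus TC-71 in that set was -3.63 for PRPH and between -0.22 (NEFM) and 0.55 (NES) for the other 6 genes. Within the third set, TC/CP minus TC-71 was -2.89 for PRPH, 0.97 for NEFL, 1.27 for NEFM, 0.22 for NEFH, -0.18 for INA and 1.54 for NES. All differences of PRPH, NEFL, NEFM, NEFH and NES in the antibody lines thus kept their direction within a set. TC/AVE and TC/CP share no set. TC-71 sample 3 exceeded sample 2 by 0.30 in NEFL, 0.31 in NEFM, 0.70 in NEFH, 0.40 in INA and 0.43 in NES. Sample 3 minus sample 2 was -0.85 in PRPH and -0.01 in VIM.

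**Figure D3:**
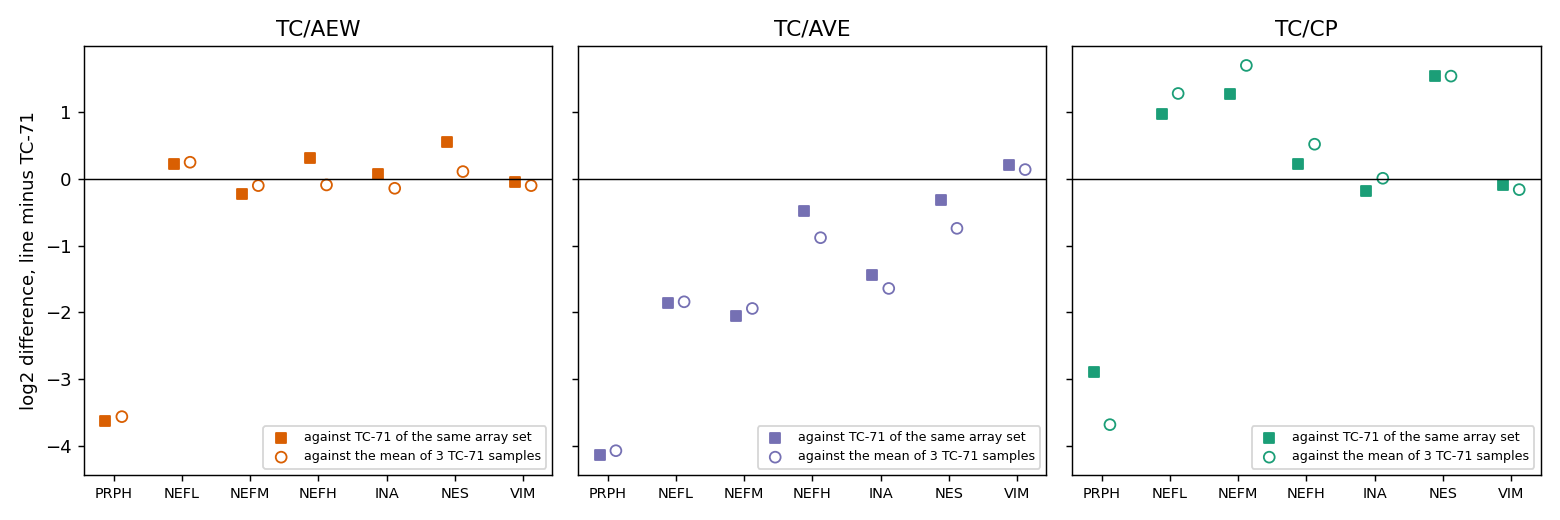
Log2 difference of each line from the TC-71 sample of its own array set (filled squares) and from the mean of 3 TC-71 samples (open circles), on a shared y axis for the 7 genes. For TC/CP the squares lie nearer 0 than the circles in PRPH (-2.89 against -3.68), NEFL (0.97 against 1.28) and NEFM (1.27 against 1.70).

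Further probe sets were present for 5 genes. For NEFL, 3 probe sets gave -1.84, -1.99 and -1.53 in TC/AVE and 1.28, 1.17 and 0.88 in TC/CP. The chosen one, at a mean of 9.29 over the arrays, was barely brighter than the next, at 9.25. For NEFH, the second probe set gave -0.91 in TC/AVE and 0.37 in TC/CP. The second probe set of NEFM did not reach 5 on any array and failed the filter. The second probe set of NES read 5.22 and 4.92 in TC/CP, against 6.02, 4.96 and 5.12 in TC-71, and so did not show the higher level of the first. The second VIM probe set, with a mean of 5.52, gave 1.04 in TC/AVE, 0.64 in TC/CP and 0.43 in TC/AEW, and is prone to cross-hybridisation by its _x_at suffix. PRPH and INA had 1 probe set each.

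**Figure D4:**
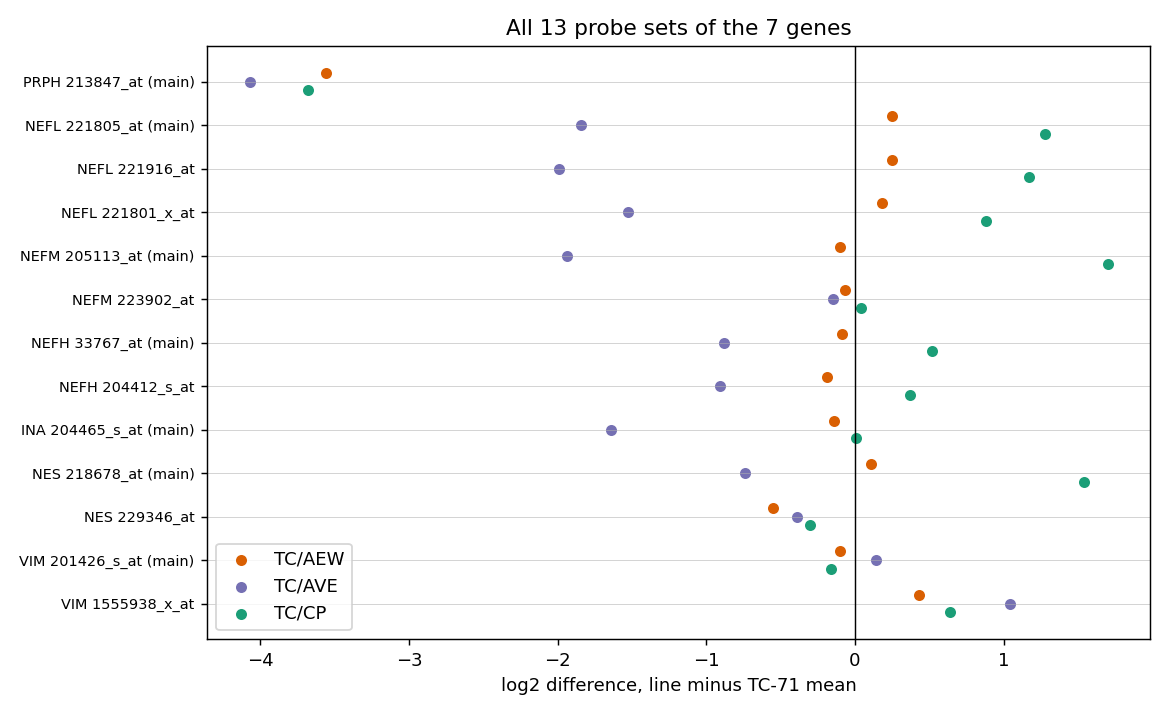
Log2 difference of each line from the TC-71 mean (x axis) for all 13 probe sets of the 7 genes, with the probe set used for each gene marked as main. The 3 NEFL and both NEFH probe sets agree in direction for TC/AVE and TC/CP, while the second NES and second VIM probe sets lie on the other side of 0 from the first in TC/AEW and TC/CP, and on the same side in TC/AVE.

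Likeness between members is a description over 6 samples that share a parent, with the lines far apart in it. NEFL and NEFM had a Pearson r of 0.98 (Spearman rho 0.94), and 0.83 without the 2 samples farthest from the median of NEFL. NEFL and NEFH had an r of 0.88 (rho 0.83), which dropped to 0.14 without those 2 samples and so rests on them. NEFL and NES went from 0.80 to -0.41 in the same way. Without the 2 samples farthest in NEFM, its r with NEFH went from 0.86 to 0.09 and with NES from 0.80 to -0.67. NES had an r of 0.65 with NEFH and 0.86 with INA, without the 2 samples farthest in NEFH or in INA. NEFH and INA had an r of 0.86 (rho 0.94), and 0.95 without the 2 farthest. PRPH was little related to any of the others, with r from -0.12 (NES) to 0.50 (INA). The order with TC/AVE lowest and TC/CP highest of the 6 samples, held by NEFL, NEFM, NEFH and NES, was seen in 3.95% of all genes, and in 1.29% with a range of at least 1. TC/AVE arrays below and TC/CP arrays above every TC-71 array were found in 3.34% of all genes, and the opposite arrangement, that of VIM, in 2.4%.

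Among genes with a range of at least 1, those most like PRPH over the 6 samples were PDGFRB (r = 0.987), a growth factor receptor of mesenchymal cells, CA14 (0.980), a membrane carbonic anhydrase, and RCN3 (0.980), a calcium-binding protein of the endoplasmic reticulum. PDGFRB read 6.64, 6.68 and 6.58 in TC/AEW, in TC/AVE and in TC/CP, against 7.63 ± 0.20 in TC-71 (SD, n = 3). The most opposite was BEND4 (r = -0.993), with 7.43, 7.31 and 7.34 in the lines and 5.66 ± 0.39 in TC-71. For NEFL the most like gene was NEFM itself, followed by EMB (r = 0.980), a cell adhesion protein, and GBE1 (0.979), the glycogen branching enzyme. The most opposite was MLC1 (r = -0.995), a membrane protein of astrocytes, with 7.42, 9.88 and 6.49 in TC/AEW, in TC/AVE and in TC/CP and 7.80 ± 0.24 in TC-71. For NEFM, FAXC (0.995), CDC7 (0.991), a kinase that starts DNA replication, and NPL (0.987) came closest. With so few samples an r of at least 0.9 was not particular to the named genes. It was held by 43 of 2893 candidate genes (1.49%) for PRPH, 69 (2.39%) for NEFL and 82 (2.83%) for NEFM.

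Other genes of the filament system were read from lists drawn up by role. Of 25 other intermediate filament genes (keratins, lamins, desmin and others), 15 were tested, and in the lines in common 5 stood higher and 10 lower with a median of -0.02, beside -0.01 over all genes. KRT18, a keratin of simple epithelia, had the largest difference, with 5.88, 5.79 and 5.65 in TC/AEW, in TC/AVE and in TC/CP and 6.82 ± 0.18 in TC-71 (-1.05 ± 0.14, adjusted p = 0.160 by limma). SYNM, synemin, which links filaments to their anchors, read 6.76, 6.63 and 7.59 in the lines and 6.39 ± 0.40 in TC-71. KRT8, the partner of KRT18 in the filament, stood 0.32 ± 0.20 higher.

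Of 15 tested genes that link filaments or turn them over, 10 stood higher and 5 lower in the lines in common, with a median of 0.14. The largest differences were in the desmosome genes PKP2 (0.97 ± 0.38) and DSP (0.89 ± 0.35). Of 13 tested genes for filament transport and phosphorylation, 8 stood higher and 5 lower, with a median of 0.02. KIF5A, the kinesin motor known to carry neurofilaments in mouse neurons, read 7.69, 7.79 and 7.20 in TC/AEW, in TC/AVE and in TC/CP and 6.84 ± 0.58 in TC-71. Of 15 other genes of the neuronal cytoskeleton, 9 stood higher and 6 lower, with a median of 0.10. DPYSL3, a growth cone protein, stood 1.07 ± 0.20 higher (adjusted p = 0.231 by limma), and TUBB3, the neuronal tubulin, read 12.55, 12.85 and 12.18 in the lines and 12.64 ± 0.23 in TC-71. TUBB3 was thus highest, not lowest, in TC/AVE among the lines. In TC/AVE, 11 of the 15 stood higher than in TC-71 and 4 lower, with a median of 0.19, beside -0.02 over all genes. CRMP1, named after its values were seen, stood furthest below, at -0.96.

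Of 21 tested neural transcription factors, 12 stood higher and 9 lower in the lines in common, with a median of 0.02. NHLH2, a helix-loop-helix factor of developing neurons, read 5.83, 3.83 and 6.08 in TC/AEW, in TC/AVE and in TC/CP and 4.52 ± 0.35 in TC-71, with TC/AVE minus TC/CP at -2.25 (adjusted p = 0.427 by limma). Levels of NHLH2 under 5 are near background, so the size of that difference is uncertain. Of 12 tested stem and progenitor genes, 8 stood higher and 4 lower, with a median of 0.07. FABP7, MYC and PAX6 had the largest differences among them, all higher in the lines in common. MYC stood 0.42 ± 0.14 higher and PAX6 0.26 ± 0.29 higher. FABP7 stood 1.36 higher in TC/AEW, while its levels in TC/AVE, TC/CP and TC-71 were under 5. SOX2, a neural stem cell factor, came next in size and stood lower. It read 8.82, 9.32 and 9.19 in the lines and 9.36 ± 0.16 in TC-71. Of 15 tested genes that accompany vimentin in mesenchymal cells, 8 stood higher and 7 lower, with a median of 0.10. ZEB1, a repressor of epithelial genes, read 6.79, 5.81 and 5.49 in the lines and 5.47 ± 0.29 in TC-71. Over these 7 lists, limma called 0 of 106 entries in the lines in common, TC/AEW, TC/AVE or TC/CP, with 11, 12, 5 and 10 at an unadjusted p under 0.05. Over all genes the shares at that unadjusted p were 8.37% in the lines in common, 3.53% in TC/AEW, 7.18% in TC/AVE and 4.97% in TC/CP.

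Markers of other cell types were read beside these results. The 7 tested fibroblast markers did not run the same way in all lines. In TC/AEW, 6 stood higher than in TC-71 and 1 lower, with a median difference of 0.33, beside 0 over all genes. There, 2 were at least 2-fold higher, LUM and the collagen COL3A1 (8.31 against 7.24 in TC-71), and 0 were lower by that much. In TC/AVE, 1 was at least 2-fold higher, DCN (decorin, 7.71 against 6.43 ± 0.74 in TC-71), and 2 were at least 2-fold lower, LUM and the collagen COL3A1 (5.19 against 7.24 ± 0.67 in TC-71). In TC/CP, 1 was at least 2-fold higher, the collagen COL1A1 (9.04 against 7.54 ± 0.27 in TC-71), and 0 were lower by that much. The median difference over the 7 was 0.06 in TC/AVE and 0.06 in TC/CP, beside -0.02 and 0 over all genes, and limma called 0 of them. COL3A1 was named after its values were seen. Of the 6 blood and immune markers on the array, 5 were under 5 in all samples, and their mean was 4.41 to 4.45 in the lines and 4.39 to 4.57 in TC-71. The 4 Schwann and glial markers had means of 5.21 to 5.32 in the lines and 5.29 to 5.44 in TC-71. The epithelial markers had means of 4.79 to 4.90 in the lines and 4.96 to 5.07 in TC-71, and the endothelial ones 4.50 to 4.62 and 4.37 to 4.57. The part of such cells, and of the array sets, in the filament values was not tested.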

How the data were processed

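RNA was measured in TC-71 and in 3 resistant lines on 9 arrays. The authors deposited a log2 level for each probe set, and the submitters' processing notes name RMA and affy. Tool versions are not given in the sources used here. Technical replicate arrays were averaged, which gave 6 samples. After 62 control probe sets were left out, 41091 of 54613 carried 1 gene symbol, 1801 several and 11721 none. RefSeq (GRCh38.p14) held 41037 of the 41091 by gene identifier, and 0 symbols differed. A probe set was kept where at least 2 arrays reached 5 (26952 kept), and the brightest stood for its gene, with _x_at probe sets used only where no other was left, except for the 7 genes reported, whose brightest was used whatever its suffix. This gave 14181 genes.

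limma 3.58.1 in R 4.3.3 was used, two-sided, with p adjusted over all genes by Benjamini-Hochberg and called under 0.05. A fit of 4 groups (2 residual degrees of freedom) served single lines and differences between lines, and a fit of 2 groups (4 residual degrees of freedom) the lines in common. Errors of differences are moderated standard errors, with 3 prior degrees of freedom in the fit of 4 groups and 3.06 in the fit of 2 groups. The fits were tested on simulated data. The 7 genes and all lists were chosen with earlier results of these data known. Named from each list were up to 4 genes with the largest absolute difference in the lines in common, and for likeness the 3 most like and 3 most opposite genes by Pearson's r. TUBB3 is named from the mature neuron list by the same rule. Alternatives covered the filter, the probe set choice, scaling, the prior variance, the array set, and leaving out each array, TC-71 sample or line. Promoter letters are RefSeq's.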

Additional observations from a re-analysis of the deposited data

Results flagged for a closer look

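In 5 genes both arrays of TC/AVE and both arrays of TC/CP lay beyond all TC-71 arrays on opposite sides, so that the antibody-selected lines lay on opposite sides of one parent. The differences from TC-71 in TC/AVE and TC/CP were -1.84 and 1.28 for NEFL, -1.94 and 1.70 for NEFM, -0.88 and 0.52 for NEFH, -0.74 and 1.54 for NES, and 0.14 and -0.16 for VIM. The direct test of TC/AVE against TC/CP gave adjusted p = 0.292 for NEFL, 0.360 for NEFM, 0.706 for NEFH, 0.518 for NES and 1 for VIM by limma, so none passed. TC/AVE arrays below and TC/CP arrays above all TC-71 arrays were found in 3.34% of the 14181 genes, the arrangement of NEFL, NEFM, NEFH and NES, and TC/AVE arrays above and TC/CP arrays below them, as in VIM, in 2.4%. The lines lie in different array sets, and the part of the set in the opposite directions was not tested beyond the values within each set given above.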

How the results depend on the processing

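The difference of PRPH in the lines in common ran from -4.16 to -3.41 over 22 alternatives, -3.77 as reported. PRPH has 1 probe set, so the alternatives of the filter and the probe set choice could not move that value. In TC/AVE every alternative kept the direction of NEFL (-2.01 to -1.53), NEFM (-2.21 to -1.72), NEFH (-1.08 to -0.48), INA (-1.75 to -1.44) and NES (-0.96 to -0.31). In TC/CP every alternative kept that of NEFL (0.88 to 1.44), NEFM (1.27 to 1.92) and NEFH (0.22 to 0.67), while NES turned to -0.30 with its second probe set. For TC/AVE minus TC/CP, NES ran from -2.30 to -0.10. Calls were made for members only with each of the 9 arrays as a sample, where technical replicates count as independent, and 13 results passed there, such as NEFL in TC/AVE (adjusted p = 0.000621 by limma) and NEFM in TC/CP (adjusted p = 0.00629).

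Among the member values refitted under an alternative, 31 changed sign or came to 0, all of them uncalled. Within the array set, which gives no test, NEFH (0.31) and INA (0.07) in TC/AEW and INA (-0.18) in TC/CP changed sign too. With 1 TC-71 sample or array left out, the lowest values were -0.27 for NEFL, -0.38 for NEFM and -0.08 for VIM in the lines in common, and with a line left out -0.80 for NEFL and -1.02 for NEFM (without TC/CP) and -0.13 for VIM (without TC/AVE). With any left out, the lowest were -0.38 for NEFM and -0.29 for NEFH in TC/AEW, and the highest was 0.15 for NEFM in TC/AEW against the antibody lines. In the lines in common, without TC/AVE these were NEFL (0.77), NEFM (0.80) and NEFH (0.21), and without TC/CP they were NES (-0.31) and VIM (0.02). Without TC-71 replicate 3 they were NEFL (0.05) and NEFM (0.10), and without replicate 1 VIM (0.03). With the array set as a block they were NEFH (0.05) and VIM (0.01), with the mean of all kept probe sets NES (-0.06) and VIM (0.33), and with second probe sets NES (-0.41) and VIM (0.70). In TC/AEW they were NEFM without TC-71 replicate 3 (0.11) or TC/AEW replicate 1 (0.03), NEFH without TC-71 replicate 3 (0.06), NES without TC-71 replicate 2 (-0.10), NES (-0.22) and VIM (0.17) with mean probe sets, and NES (-0.55) and VIM (0.43) with second probe sets. In TC/CP they were VIM with mean probe sets (0.24) or its second probe set (0.64), and INA with quantile normalization (-0.04) or without TC-71 replicate 2 (-0.09) or TC/CP replicate 2 (0.00). NEFM in TC/AEW against the antibody lines turned with median centring (-0.03) and without TC/AEW replicate 2 (-0.12) or TC/AVE replicate 1 (-0.07).

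The count of genes called in the lines in common, 3 as reported, was 0 with no filter, with every kept probe set tested or with the array set as a block. It was 5 with no _x_at or _s_at probe sets, 6 with a filter at 6, with mean probe sets or with an intensity trend, and 240 with 9 arrays as samples. Leaving out 1 array, TC-71 sample or line gave 0 to 5. TC-71 replicates 1, 2 or 3 and each line gave 0 when left out. With 9 arrays as samples the counts were 547 in TC/AEW, 1857 in TC/AVE, 1029 in TC/CP, 295 for TC/AEW against the antibody lines and 1897 for TC/AVE against TC/CP, each 0 as reported. TC/AVE had 5 with median centring or quantile normalization and 6 with mean probe sets, and an intensity trend gave 1 in TC/CP and 1 for TC/AVE against TC/CP. The cause of these shifts was not tested. Without _x_at or _s_at probe sets INA and VIM had no value. No paired analysis was possible because the replicate numbers pair nothing, the arrays of a line being technical replicates of 1 sample. The array sets, which are not numbered pairs, entered as the block and the within-set values given above. Depth has no meaning for arrays, and levels under 5 are near background.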

Other observations

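The genes most like NEFH over the 6 samples were CSNK1E (r = 0.983), a casein kinase of the circadian clock, FUT4 (0.978) and SOX18 (0.974). CSNK1E read 7.65, 6.42 and 8.29 in TC/AEW, in TC/AVE and in TC/CP, against 7.82 ± 0.46 in TC-71 (SD, n = 3). The most opposite was TMEFF2 (r = -0.983), with 9.99, 11.01 and 9.15 in the lines and 9.93 ± 0.38 in TC-71. For INA, the most like was PIWIL2 (r = 0.984), which acts with small RNAs in germ cells, at 8.05, 5.16 and 8.09 in TC/AEW, in TC/AVE and in TC/CP, against 7.91 ± 0.12 in TC-71. The most opposite was POU3F3 (r = -0.997), a transcription factor of neural development, at 3.71, 5.61 and 3.53 in the lines and 3.60 ± 0.23 in TC-71, where every level but that of TC/AVE is near background. For NES, the most like was ANGPT1 (r = 0.995), a ligand of the TIE2 receptor, at 4.76, 4.31 and 5.53 in the lines and 4.64 ± 0.25 in TC-71, again mostly near background. SLC35F2 (r = 0.986) read 9.28, 8.97 and 10.38 in the lines and 9.34 ± 0.32 in TC-71. These are descriptions of 6 samples with a shared parent.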
